A study of Mus musculus with 6 samples.

Results

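The 10 genes described here are the Fos family members Fos, Fosb, Fosl1 and Fosl2, the Jun family members Jun, Junb and Jund, and the immediate early or stress-induced genes Egr1, Atf3 and Ier3. They were chosen by symbol, as 10 of the 52323 genes in the count table, and all 10 passed the filter on low counts, which left 19135 genes for testing. Proteins of the Fos and Jun families pair through leucine zippers to form AP-1, a transcription factor that binds the TPA response element in promoters and enhancers, and Jun proteins can also pair with each other and with ATF3. Immediate early genes are transcribed within minutes of a growth factor, cAMP, calcium or stress signal from factors already present in the cell, and their transcripts are short-lived. In liver they are known for their rapid induction after injury, partial hepatectomy or the isolation and plating of hepatocytes.

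Damaged hepatocytes (dHeps) from livers of mice with chronic carbon tetrachloride injury were cultured in 3 groups of 2 libraries each and profiled by bulk RNA-seq on day 16. All groups carried the genotype AAV-TBG-Cre:Rosa-LSL-tdTomato, in which Cre under the liver-specific TBG promoter, delivered by an adeno-associated virus, switches on a red fluorescent label. All groups also shared the same serum-free Hepatocyte Maintenance Medium and collagen-coated plates. DMSO was the solvent control, 3C held CID755673 at 50 µM, GSK429286A at 2 µM and ETC-1002 at 5 µM, and 5C held the same 3 compounds with salidroside at 5 µM and forskolin at 2 µM. CID755673 is an inhibitor of protein kinase D, GSK429286A is also a kinase inhibitor, ETC-1002 inhibits ATP citrate lyase, and forskolin is an activator of adenylate cyclase, the enzyme that makes cAMP. The cells came from a collagenase and pronase perfusion, the labels do not name a sort on the fluorescent label, and the age of the donor mice is not in the labels. The labels do not say whether the 2 libraries of a group came from separate animals or cultures, so p-values measure only the spread between these libraries.

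Total counts ran from 65916573 to 69245895 per library, so that 3 counts corresponded to 0.0433 to 0.0455 CPM (counts scaled to a common library total), and the 10 genes took 0.127% to 0.143% of all counts. The hepatocyte label was checked against 10 marker genes. All 10 were detected, with a summed level of 2228 to 2366 CPM in DMSO, 10276 to 10831 in 3C and 10119 to 14682 in 5C, 9 of them rose in each cocktail against DMSO and Arg1 fell. Alb, which encodes serum albumin, stood at 1357 and 1182 CPM in DMSO, 7402 and 7769 CPM in 3C, and 6766 and 10400 CPM in 5C. The cultures also held transcripts of other cell types. The summed level of 20 macrophage markers was 15436 and 16609 CPM in DMSO, 5437 and 5489 CPM in 3C, and 3669 and 3618 CPM in 5C, with 17 of the 20 lower than in DMSO in each cocktail, 1 higher (Cd14) and none at 0. The summed level of 12 stellate and fibroblast markers ran from 8092 to 9425 CPM in DMSO, from 7222 to 7314 in 3C and from 11814 to 12777 in 5C, where 7 of the 12 rose and 2 fell against DMSO. The 8 mesothelial markers summed to 1074 to 1294 CPM, 1445 to 1563 CPM and 2525 to 2635 CPM in the same order (8 of 8 rose in 5C against DMSO and 3 in 3C), 7 cholangiocyte markers to 2920 to 3406, 3563 to 3753 and 2407 to 2712, and 10 endothelial markers to 372 to 398, 120 to 154 and 175 to 275. Several markers in these last lists moved against the sums. In 5C against DMSO 5 of the 7 cholangiocyte markers rose and 1 fell. Of 9 tested endothelial markers, 5 rose and 2 fell in 5C and 3 rose and 2 fell in 3C. In 3C against DMSO 5 cholangiocyte markers rose, as their sum did. Cdh5, an endothelial cadherin gene, stood at 1.25 and 1.06 CPM in DMSO, 6.45 and 14.9 CPM in 3C, and 43.3 and 72.2 CPM in 5C. Neutrophil, T and B cell markers summed to at most 1.55 CPM in any library, and the T cell gene Cd3e was at 0 in all 6. AP-1 and immediate early genes are used by all of these cell types, and the part of these markers in the results below was not tested. In bulk samples, fewer cells of a type and less RNA per cell cannot be told apart.

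A gene was said to have changed when its adjusted p was under 0.05 in edgeR's quasi-likelihood test, with Benjamini-Hochberg adjustment over the 19135 genes tested. Against DMSO, 7 of the 10 genes changed in 5C, where 28.7% of all genes tested did. Fos, Junb and Egr1 rose (15.6% of all genes did) and Fosl1, Jun, Jund and Atf3 fell (13.1%). In 3C, 8 of the 10 genes changed against DMSO, where 24.5% of all genes did. Junb and Egr1 rose (12.7% of all genes), and Fos, Fosb, Fosl1, Fosl2, Jun and Atf3 fell (11.8%). Between the cocktails, 4 of the 10 genes differed, where 12.7% of all genes did. Fos, Fosb and Fosl2 were higher in 5C than in 3C (7.33% of all genes) and Fosl1 was lower (5.33%). Without 3C replicate 1, the number of changed genes was 5 in 3C against DMSO and 1 (Fos) between the cocktails. Both comparisons against DMSO share the DMSO libraries.

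Most of these changes were small. In 5C against DMSO, Fosl1 alone changed by more than 2-fold, downward, where 11.7% of all genes tested did so in either direction (7.3% higher and 4.42% lower). In 3C, Fosb alone did, also downward, beside 9.45% of all genes (5.83% higher and 3.62% lower). Between the cocktails, Fosb was over 2-fold higher in 5C and Fosl1 over 2-fold lower, beside 3.01% of all genes (2.16% higher and 0.852% lower). The median log2 fold change of the 10 genes was -0.09 for 5C and -0.33 for 3C against the solvent and 0.04 between the cocktails, beside 0.00, 0.01 and -0.01 over all genes tested. The libraries of the groups compared did not overlap for 8 of the 10 genes when 5C was set against DMSO (63.1% of all genes), for 8 with 3C (61.3%) and for 7 between the cocktails (58%).

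**Figure D1:**
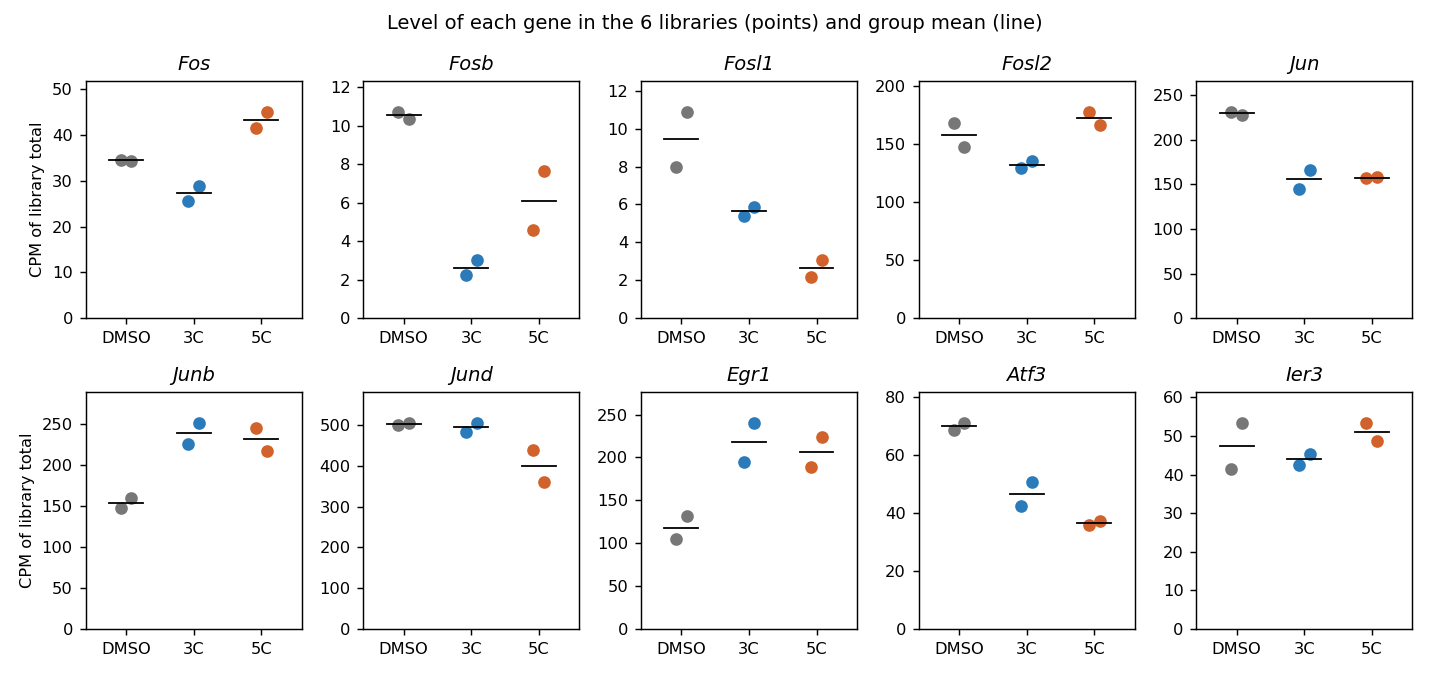
Level of each of the 10 genes in CPM of the library total, with 1 point per library, a line at the mean of the 2 libraries of each group, and each vertical axis starting at 0. Jun and Atf3 are lower, and Junb and Egr1 higher, in all 4 cocktail libraries than in both DMSO libraries, while Fos is lowest in 3C and highest in 5C.

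Fos encodes the founding member of its family, a short-lived nuclear protein that needs a Jun partner to bind DNA. It lies on chromosome 12 at positions 85520658 to 85524047 of GRCm39, on the plus strand, in 4 exons. Its level was 34.6 and 34.4 CPM in DMSO, 25.6 and 29.0 CPM in 3C, and 41.6 and 45.1 CPM in 5C. The 3 groups did not overlap, with 3C lowest and 5C highest. Fos fell in 3C against DMSO, with a log2 fold change of -0.37 (SE 0.10, n = 2 and 2 libraries, adjusted p = 0.0245 in edgeR's test), and rose in 5C against DMSO by 0.35 (SE 0.10, adjusted p = 0.0276). By limma on log2(FPKM + 1), the 5C call ended (adjusted p = 0.0611). FPKM are counts scaled by the authors for gene length and library size. Without a low-count filter on that scale, the 3C call ended too (limma, adjusted p = 0.0984). The difference between 5C and 3C was 0.72 (SE 0.10, 95% interval 0.49 to 0.94, adjusted p = 0.00237), and it passed the test without each library in turn. The call in 5C against DMSO ended without DMSO replicate 1 (adjusted p = 0.0793), without DMSO replicate 2 (0.0683) and without 5C replicate 2 (0.166), and that in 3C ended without DMSO replicate 1 (0.0575), DMSO replicate 2 (0.0681) or 3C replicate 1 (0.205).

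Fosb encodes a paralogue of FOS. It lies on chromosome 7 at positions 19036621 to 19043976, on the minus strand, in 4 exons. Its level was 10.7 and 10.3 CPM in DMSO, 2.22 and 3.02 CPM in 3C, and 4.59 and 7.63 CPM in 5C. The order was again 3C lowest, but both 5C libraries stayed below both DMSO libraries. Fosb fell in 3C against DMSO with a log2 fold change of -2.04 (SE 0.28, 95% interval -2.67 to -1.40, adjusted p = 0.000698), which was the largest change among the 10 genes in the 3 comparisons. It was higher in 5C than in 3C by 1.27 on the log2 scale (SE 0.28, adjusted p = 0.0168), a call that ended without 3C replicate 1 (log2 fold change 1.07, adjusted p = 0.128) and without 5C replicate 2 (0.84, adjusted p = 0.114). In 5C against DMSO the log2 fold change was -0.76 (SE 0.27, 95% interval -1.37 to -0.16, adjusted p = 0.0631), which did not pass, although without 5C replicate 2 it was -1.19 with an adjusted p of 0.0178, and it passed with DESeq2 (0.0394), with at least 10 counts in every library (0.0446) and with counts divided by 4 (0.0358). The call between the cocktails also ended with limma on log2(FPKM + 1) (adjusted p = 0.0512), and held with limma on log2(FPKM + 0.1) (0.0385). The 2 libraries of 5C differed by more for Fosb than for any other of the 10 genes relative to their mean.

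Fos and Fosb were the only genes of the 10 whose 500 bases before the transcription start held a CArG box, the site bound by serum response factor, at 303 bases before the start in Fos and 266 in Fosb. Each window was taken before a single annotated start per gene, so sites near other starts, in Egr1 or any other gene, were not searched. A CArG box was found in 2.76% of 21757 such promoter windows, both strands searched. The proximal promoters are shown because the 2 genes had their lowest level in 3C and stood higher in 5C, a pattern that Fosl2 shared with no CArG box in its window. The sequences are from GRCm39 and run from position -320 to -21 from the start for Fos, at chr12:85520338-85520637 on the plus strand, and from -280 to -41 for Fosb, at chr7:19044017-19044256 on the minus strand. Capitals mark the CArG box, the letters TGACG (the core of the cAMP response element, on the other strand CGTCA) and, in Fos, TATAAA.
Fos: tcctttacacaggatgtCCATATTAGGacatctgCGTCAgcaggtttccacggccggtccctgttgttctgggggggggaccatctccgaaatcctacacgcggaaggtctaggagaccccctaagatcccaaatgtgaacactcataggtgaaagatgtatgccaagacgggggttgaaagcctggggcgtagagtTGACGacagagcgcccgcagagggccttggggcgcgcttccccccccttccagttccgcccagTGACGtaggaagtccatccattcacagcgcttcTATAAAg
Fosb: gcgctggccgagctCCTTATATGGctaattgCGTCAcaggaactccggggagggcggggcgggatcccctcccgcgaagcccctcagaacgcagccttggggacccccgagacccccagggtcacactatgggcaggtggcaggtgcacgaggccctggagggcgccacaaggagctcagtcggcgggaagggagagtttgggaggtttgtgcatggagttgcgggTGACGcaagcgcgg
In both windows the CArG box was followed within a few bases by a TGACG core on the strand opposite to the gene's own. The core was found in 25.8% of promoter windows and in 7 of the 10 genes (Fos, Fosb, Fosl1, Jun, Junb, Jund and Egr1). The letters TGANTCA, which take in the TPA response element but allow any base at N, were in 12.3% of windows. Among the 10 genes they were found in Fos, 456 bases before its start and outside the stretch shown. TATAAA was in 24.3% of windows and in Fos, Fosl1 and Junb, at 27, 132 and 30 bases before the start. The windows of Fosl2, Atf3 and Ier3 held none of the 5 motifs searched. A match describes letters in a window and not binding.

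Fosl1 encodes FRA1 and Fosl2 encodes FRA2, the Fos-related antigens, which lack the strong activation domain of FOS. Fosl1 lies on chromosome 19 at positions 5497575 to 5505974, on the plus strand, in 4 exons. Its level was 7.98 and 10.9 CPM in DMSO, 5.41 and 5.88 CPM in 3C, and 2.19 and 3.06 CPM in 5C. The groups did not overlap, and unlike Fos and Fosb the order was DMSO, 3C and then 5C from high to low. Fosl1 fell in 5C against DMSO with a log2 fold change of -1.83 (SE 0.25, 95% interval -2.40 to -1.26, adjusted p = 0.000579), and this call held without each library in turn. The fall in 3C against DMSO was -0.77 (SE 0.24, adjusted p = 0.0466) and ended without DMSO replicate 2 (log2 fold change -0.51, adjusted p = 0.260), 3C replicate 1 (0.215) or 3C replicate 2 (0.144). Fosl1 was lower in 5C than in 3C by -1.05 (SE 0.25, adjusted p = 0.0244), a call that ended without 3C replicate 1 (0.0883), 3C replicate 2 (0.129) or 5C replicate 1 (0.136). The call in 3C against DMSO also ended in edgeR with upper-quartile scaling (adjusted p = 0.05002) and with library totals alone (0.0513). It ended too with limma on log2(FPKM + 1) without a filter (0.0968). The exons of Fosl1 overlap those of Ccdc85b on the other strand, which stood at 28.7 to 34.6 CPM. The strand setting of the counting is not given in the sources used here, so reads of overlapping genes cannot be told apart.

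Fosl2 lies on chromosome 5 at positions 32292707 to 32315186, on the plus strand, in 4 exons. It stood at 168 and 148 CPM in DMSO, 129 and 136 CPM in 3C, and 178 and 167 CPM in 5C. DMSO and 5C overlapped, and both 3C libraries were below the other 4. Fosl2 fell in 3C against DMSO with a log2 fold change of -0.29 (SE 0.08, adjusted p = 0.0236), and was higher in 5C than in 3C by 0.43 (SE 0.08, 95% interval 0.26 to 0.60, adjusted p = 0.00663). In 5C against DMSO its log2 fold change was 0.14, with a 95% interval of -0.03 to 0.32 (adjusted p = 0.202). With limma on log2(FPKM + 1), neither call passed (adjusted p = 0.140 in 3C against DMSO and 0.0719 between the cocktails). The 3C call ended without DMSO replicate 1 (adjusted p = 0.105), 3C replicate 1 (0.200) or 3C replicate 2 (0.0944), and the call between the cocktails ended without 3C replicate 1 (0.0874).

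**Figure D2:**
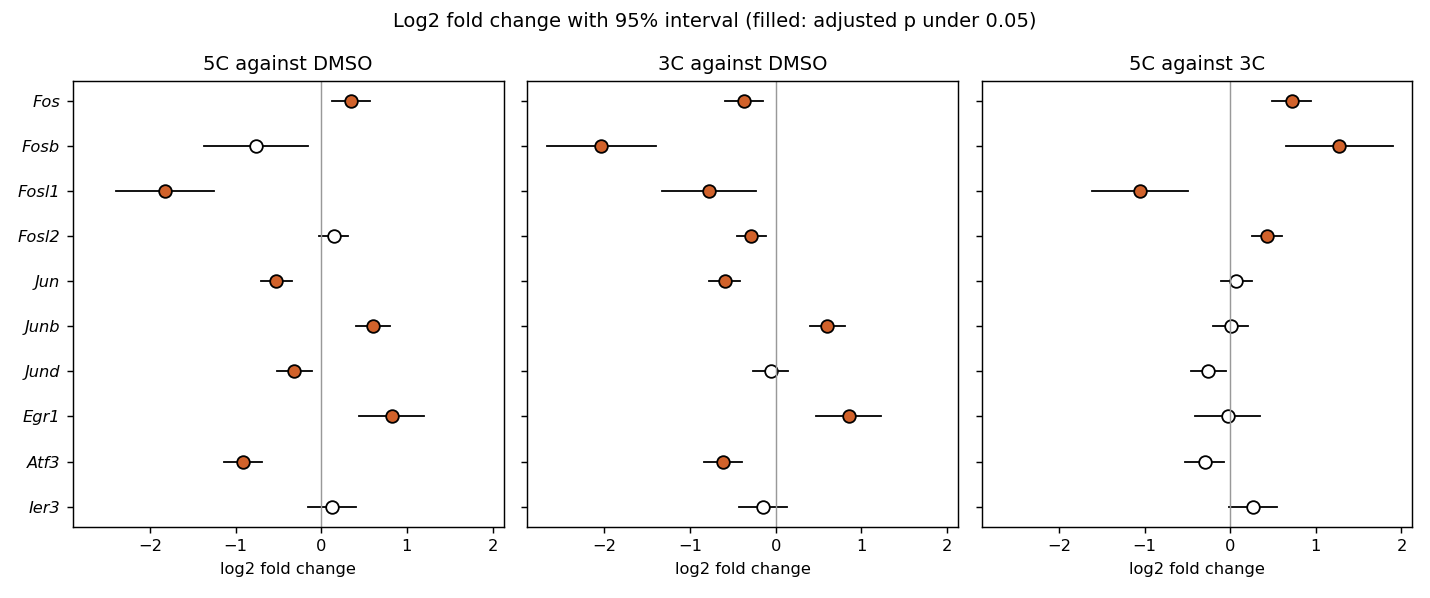
Log2 fold change of each gene, as points with 95% intervals from edgeR's quasi-likelihood fit, for each cocktail against DMSO and between the cocktails, with filled points for an adjusted p under 0.05. Jun, Junb, Egr1 and Atf3 lie to the same side of 0 in both comparisons against DMSO, and Fos lies to opposite sides (0.35 in 5C and -0.37 in 3C).

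Jun encodes c-JUN, the main partner of the Fos proteins and a target of the JNK kinases. The single-exon gene lies on chromosome 4 at positions 94937271 to 94940459, on the minus strand. Its level was 231 and 228 CPM in DMSO, 144 and 166 CPM in 3C, and 157 and 158 CPM in 5C. All 4 cocktail libraries were below both DMSO libraries. Jun fell in 5C against DMSO with a log2 fold change of -0.53 (SE 0.08, 95% interval -0.71 to -0.34, adjusted p = 0.00107) and in 3C against DMSO by -0.59 (SE 0.08, adjusted p = 0.000621), and both calls held without each library in turn. Between the cocktails the log2 fold change was 0.07 (95% interval -0.11 to 0.25, adjusted p = 0.687). The antisense lncRNA Junos, whose exons overlap Jun, stood at 0.838 to 2.16 CPM.

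Junb encodes a Jun protein that activates less strongly than c-JUN and can oppose it on some promoters. The gene lies on chromosome 8 at positions 85701113 to 85705359, on the minus strand, with a single exon in the transcript that the annotation marks as canonical. Its level was 147 and 160 CPM in DMSO, 225 and 251 CPM in 3C, and 245 and 217 CPM in 5C. All 4 cocktail libraries were above both DMSO libraries. Junb rose by 0.61 on the log2 scale in 5C against DMSO (SE 0.09, 95% interval 0.41 to 0.81, adjusted p = 0.000816) and by 0.60 in 3C (SE 0.09, adjusted p = 0.00103), and both calls held without each library in turn. Between the cocktails the log2 fold change was 0.00 (95% interval -0.19 to 0.20, adjusted p = 0.985). The exons of Junb overlap those of Prdx2 on the other strand, and Prdx2, which encodes a peroxiredoxin, stood at 171 and 201 CPM in DMSO, 241 and 240 CPM in 3C, and 221 and 203 CPM in 5C. The part of Prdx2 reads in the Junb counts was not tested.

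Jund encodes the Jun protein that is made at a steady level in most resting cells. The single-exon gene lies on chromosome 8 at positions 71151599 to 71153265, on the plus strand. It had the highest level of the 10 genes, with 499 and 505 CPM in DMSO, 482 and 505 CPM in 3C, and 439 and 360 CPM in 5C. DMSO and 3C overlapped, and both 5C libraries were below the other 4. Jund fell in 5C against DMSO with a log2 fold change of -0.31 (SE 0.09, 95% interval -0.52 to -0.11, adjusted p = 0.0294). The fall did not pass with limma on log2(FPKM + 1) (adjusted p = 0.0541) or on log2(FPKM + 0.1) (0.0521). That call ended without DMSO replicate 1 (0.0525), DMSO replicate 2 (0.0769), 3C replicate 1 (0.0599), 3C replicate 2 (0.0598) or 5C replicate 2 (log2 fold change -0.19, adjusted p = 0.163). In 3C against DMSO the log2 fold change was -0.06 (95% interval -0.26 to 0.15, adjusted p = 0.732), and in 5C against 3C it was -0.26 (95% interval -0.46 to -0.05, adjusted p = 0.107), which passed with DESeq2 (0.0376) and without 5C replicate 1 (-0.40, adjusted p = 0.0305). Of the 50-base stretches of Jund transcripts, 5.01% were shared with another gene, and the other 9 genes shared none.

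Jund was the only one of the 10 genes whose window held the full palindromic cAMP response element, TGACGTCA, which was found in 1.96% of promoter windows. Its promoter is shown as the window that holds the full element. The 6 other windows with a TGACG core did not hold the full element. The stretch is chr8:71151369-71151518 of GRCm39, plus strand, which runs from position -230 to -81 from the transcription start, with the response element and a further TGACG core in capitals.
Jund: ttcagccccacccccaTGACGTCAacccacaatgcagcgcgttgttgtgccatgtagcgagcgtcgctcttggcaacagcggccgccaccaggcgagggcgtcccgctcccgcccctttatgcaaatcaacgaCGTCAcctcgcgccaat
The Jund difference between 5C and 3C did not pass edgeR's test (adjusted p = 0.107), and a link between it and the element was not tested.

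Within each library, the levels per kilobase of exons were compared inside the families. On this scale the ratio of Junb to Jun was 0.852 and 0.941 in DMSO, 2.09 and 2.03 in 3C, and 2.09 and 1.84 in 5C. With these lengths, Jun stood above Junb in both DMSO libraries, and Junb above Jun in all 4 cocktail libraries. The order in DMSO was not the same in the authors' FPKM (counts scaled for gene length and library size). There DMSO replicate 2 had 78.4 for Junb and 63.3 for Jun, and Junb in DMSO replicate 1 was listed at 0. The summed level of the 3 Jun genes was 433 and 441 CPM per kilobase in DMSO, 429 and 461 in 3C, and 415 and 357 in 5C, and the DMSO and 3C libraries overlapped. Jund made up 60.5% to 69.1% of that sum in the 6 libraries.

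Among the Fos genes, the ratio of Fos to Fosl1 per kilobase was 3.74 and 2.72 in DMSO, 4.09 and 4.25 in 3C, and 16.4 and 12.7 in 5C. The share of Fosl1 in the summed Fos family level was 10.8% and 14.9% in DMSO, 10.1% in both 3C libraries, and 2.94% and 3.97% in 5C. That of Fosb was 4.70% and 4.63% in DMSO, 1.35% and 1.68% in 3C, and 2.01% and 3.22% in 5C. The summed level was 36.5 and 35.8 CPM per kilobase in DMSO, 26.3 and 28.7 in 3C, and 36.6 and 37.9 in 5C. Both 3C libraries were below the other 4 libraries. These ratios and shares were not tested.

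**Figure D3:**
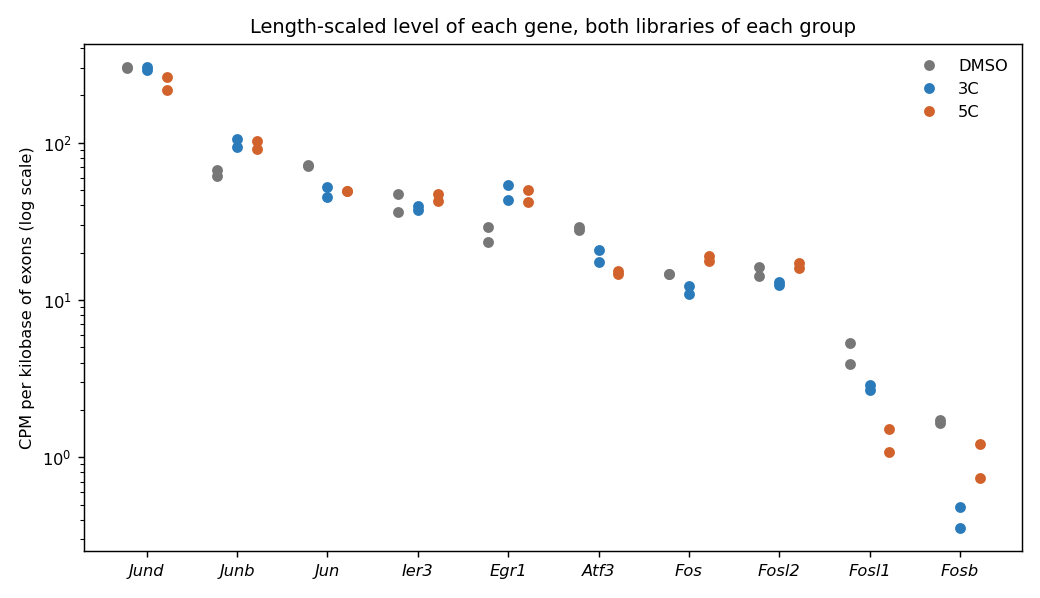
Level of each gene in CPM per kilobase of exons on a log axis, with both libraries of each group as points. Jund is highest in all 6 libraries, Fosl1 and Fosb are lowest, and on this scale the order of Jun and Junb differs between DMSO and the cocktails.

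On the same scale, the group means of the 10 genes ran from 301 CPM per kilobase for Jund in DMSO to 0.420 for Fosb in 3C. Fos and Fosl2 were neighbours in the order, with 14.6 and 15.2 CPM per kilobase in DMSO, 11.6 and 12.7 in 3C, and 18.4 and 16.6 in 5C. Their ratio in single libraries ran from 0.874 to 1.19, so on this scale the order of the 2 was not the same in all libraries. By the authors' FPKM, Fosl2 stood above Fos in every library, for example at 22.8 against 19.0 in 5C replicate 2. Lengths were those of all annotated exons, and a transcript that uses only some of them would have a higher level than given.

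Egr1 encodes a zinc finger factor that is induced through serum response factor and the ERK pathway. It lies on chromosome 18 at positions 34992876 to 34998049, on the plus strand, in 2 exons. Its level was 105 and 131 CPM in DMSO, 195 and 241 CPM in 3C, and 188 and 224 CPM in 5C. All 4 cocktail libraries were above both DMSO libraries, and 3C and 5C overlapped. Egr1 rose by 0.82 on the log2 scale in 5C against DMSO (SE 0.16, 95% interval 0.44 to 1.21, adjusted p = 0.00876) and by 0.85 in 3C (SE 0.16, adjusted p = 0.00858). The 5C call ended without 5C replicate 2 (log2 fold change 0.68, adjusted p = 0.0571). Between the cocktails the log2 fold change was -0.03 with a 95% interval of -0.41 to 0.35 (adjusted p = 0.948).

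Atf3 encodes a bZIP factor of the ATF family that is induced by many stresses and pairs with Jun proteins. It lies on chromosome 1 at positions 190902493 to 190950241, on the minus strand, in 4 exons. It stood at 68.5 and 71.2 CPM in DMSO, 42.5 and 50.6 CPM in 3C, and 35.8 and 37.3 CPM in 5C. The 3 groups did not overlap, with DMSO highest and 5C lowest. Atf3 fell in 5C against DMSO with a log2 fold change of -0.91 (SE 0.10, 95% interval -1.14 to -0.69, adjusted p = 0.000132), the lowest adjusted p of the 10 genes, and in 3C by -0.62 (SE 0.10, adjusted p = 0.00166). Both calls held without each library in turn. Between the cocktails the log2 fold change was -0.30 (95% interval -0.52 to -0.08, adjusted p = 0.0876), which did not pass, although it did with library totals alone (-0.35, adjusted p = 0.0460).

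Egr1 and Atf3 moved in opposite directions. The ratio of Egr1 to Atf3 per kilobase was 0.828 and 1.00 in DMSO, 2.49 and 2.58 in 3C, and 2.85 and 3.26 in 5C.

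Ier3 encodes a small protein that acts on cell survival and ERK signalling. It lies on chromosome 17 at positions 36132568 to 36133815, on the plus strand, in 2 exons. Its level was 41.5 and 53.4 CPM in DMSO, 42.5 and 45.4 CPM in 3C, and 53.4 and 48.8 CPM in 5C. The DMSO libraries spanned both 3C libraries and overlapped 5C. No comparison passed the test, with log2 fold changes of 0.12 in 5C against DMSO (95% interval -0.16 to 0.40, adjusted p = 0.524), -0.14 in 3C against DMSO (-0.42 to 0.13, 0.472) and 0.27 in 5C against 3C (-0.01 to 0.55, 0.222). Ier3 passed in 5C against DMSO without DMSO replicate 2 (log2 fold change 0.33, adjusted p = 0.0415) and, when DMSO replicate 1 was left out, in 3C against DMSO (-0.33, adjusted p = 0.0444).

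The wider pathway was described with 8 further lists. Other immediate early genes, of which 29 of 30 were tested, moved in both directions. In 5C against DMSO 8 rose and 5 fell, in 3C against DMSO 5 rose and 6 fell, and in 5C against 3C 9 were higher and 5 lower. That is 44.8%, 37.9% and 48.3% of the list, beside 28.7%, 24.5% and 12.7% of all genes. The median log2 fold change of the list was 0.09, -0.05 and 0.21 in these comparisons. Klf4, which encodes a zinc finger factor, fell from 276 CPM ± 3.17 (SD, n = 2) in DMSO to 128 ± 14.1 in 5C (log2 fold change -1.09, adjusted p = 6.8e-05) and 115 ± 13.4 in 3C (-1.30, adjusted p = 3.36e-05). Gadd45b, a stress-induced growth arrest gene, rose in 5C (1.22, adjusted p = 8.35e-06) and in 3C (0.88, adjusted p = 7.88e-05). Ptgs2, which encodes cyclooxygenase 2, averaged 12.3 ± 0.805 CPM with DMSO, 3.26 ± 0.153 with 3C and 7.35 ± 0.549 with 5C, and was higher in 5C than in 3C (1.22, adjusted p = 0.00245). Its order of groups was that of Fosb. The nuclear receptor gene Nr4a1 (0.58, adjusted p = 0.015) and Csrnp1 (0.65, adjusted p = 0.000896) were also higher in 5C than in 3C, while Myc (-0.54, adjusted p = 0.00245) and the salt-inducible kinase gene Sik1 (-0.53, adjusted p = 0.00152) were lower.

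Of 18 other bZIP genes whose products can pair with or resemble AP-1 subunits, 2 rose and 4 fell in 5C against DMSO, 2 rose and 3 fell in 3C against DMSO, and 3 were higher and 2 lower in 5C against 3C. These were 33.3%, 27.8% and 27.8% of the list, beside 28.7%, 24.5% and 12.7% of all genes, so that the shares against DMSO were near those of all genes. Atf5, a factor of the integrated stress response, rose in 5C (0.70, adjusted p = 0.000277) and 3C (0.68, adjusted p = 0.000398). Creb1, which encodes the cAMP response element binding protein, fell in 5C against DMSO (-0.35, adjusted p = 0.0231). Maff, Maf and Mafg, which encode other Maf proteins, changed in 3C against DMSO by 0.57, -0.32 and -0.28.

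Of 21 tested genes of the MAP kinase cascades that act on AP-1, 2 rose and 2 fell in 5C against DMSO, 5 rose and 1 fell in 3C against DMSO, and 1 was higher and 4 were lower in 5C against 3C. These were 19.0%, 28.6% and 23.8% of the list, beside 28.7%, 24.5% and 12.7% of all genes. The share of the list was below that of all genes in 5C against DMSO, near it in 3C against DMSO and above it in 5C against 3C. Mapk13, a p38 kinase gene, rose in 5C (1.70, adjusted p = 0.000762) and 3C (1.01, adjusted p = 0.0142). The 6 genes of serum response factor and its cofactors held 1 change, a fall of Mrtfa in 3C against DMSO (-0.32, adjusted p = 0.0311). That is 16.7% of the list, beside 24.5% of all genes, and the share was 0% in the other comparisons. Of 14 feedback inhibitors of these cascades, 4 rose and 4 fell in 5C against DMSO, 4 rose and 5 fell in 3C against DMSO, and 2 were higher and 3 lower in 5C against 3C. That is 57.1%, 64.3% and 35.7% of the list, beside 28.7%, 24.5% and 12.7% of all genes. The receptor pathway inhibitors Spry4 (1.32, adjusted p = 1.19e-05) and Spry1 (1.08, adjusted p = 0.000373) rose in 5C, while the MAP kinase phosphatases Dusp1 (-1.05, adjusted p = 6.9e-06), Dusp4 (-0.78, adjusted p = 7.65e-05) and Dusp10 (-0.75, adjusted p = 0.00135) fell. Dusp5, also a phosphatase gene, went the other way in 5C (0.96, adjusted p = 6.44e-05).

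AP-1 target genes, of which 29 of 30 were tested, had the largest share of changes in 5C against DMSO among the 8 lists. There 7 rose and 14 fell (72.4% in either direction, beside 28.7% of all genes), with a median log2 fold change of -0.43. In 3C against DMSO 3 rose and 12 fell (51.7%, beside 24.5% of all genes, median -0.28). In 5C against 3C 8 were higher and 8 lower (55.2%, beside 12.7% of all genes, median 0.14). Mmp12, a metalloproteinase gene known from macrophages, fell in 5C (-2.62, adjusted p = 0.000755) and 3C (-2.05, adjusted p = 0.0032). The chemokine genes Ccl2 and Cxcl1 rose in 5C (1.22, adjusted p = 3.13e-05, and 0.90, adjusted p = 0.00021) and in 3C (1.90, adjusted p = 4.67e-06, and 1.59, adjusted p = 1.12e-05). Timp1, which encodes an inhibitor of metalloproteinases, was higher in 5C than in 3C (1.21, adjusted p = 0.000273), and Areg, an EGF receptor ligand gene, was lower (-1.41, adjusted p = 0.00375). The stellate, fibroblast and mesothelial marker sums were also higher in 5C than in 3C, and their part in these values was not tested.

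Of 15 tested genes of the integrated and endoplasmic reticulum stress responses, which are known to induce Atf3, 4 rose and 3 fell in 5C against DMSO, 1 rose and 7 fell in 3C against DMSO, and 6 were higher and 1 lower in 5C against 3C. The shares of the list were 46.7%, 53.3% and 46.7%, beside 28.7%, 24.5% and 12.7% of all genes. The chaperone gene Hspa5 fell in 3C against DMSO (-0.83, adjusted p = 0.000239) and was higher in 5C than in 3C (0.66, adjusted p = 0.00276). The cystine transporter gene Slc7a11 fell from 289 CPM ± 10.7 in DMSO to 77.4 ± 19.6 in 5C (-1.88, adjusted p = 0.000207). Of 10 genes for partners and targets of EGR1, 2 rose and 2 fell in each cocktail against DMSO, and 1 was higher and 1 lower in 5C than in 3C. That is 40%, 40% and 20% of the list, beside 28.7%, 24.5% and 12.7% of all genes. Nab2, which encodes a corepressor that is itself induced by EGR1, rose in 5C (1.08, adjusted p = 2.25e-05) and 3C (0.33, adjusted p = 0.0223) and was higher in 5C than in 3C (0.75, adjusted p = 0.00102), whereas Egr1 itself did not pass between the cocktails.

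**Figure D4:**
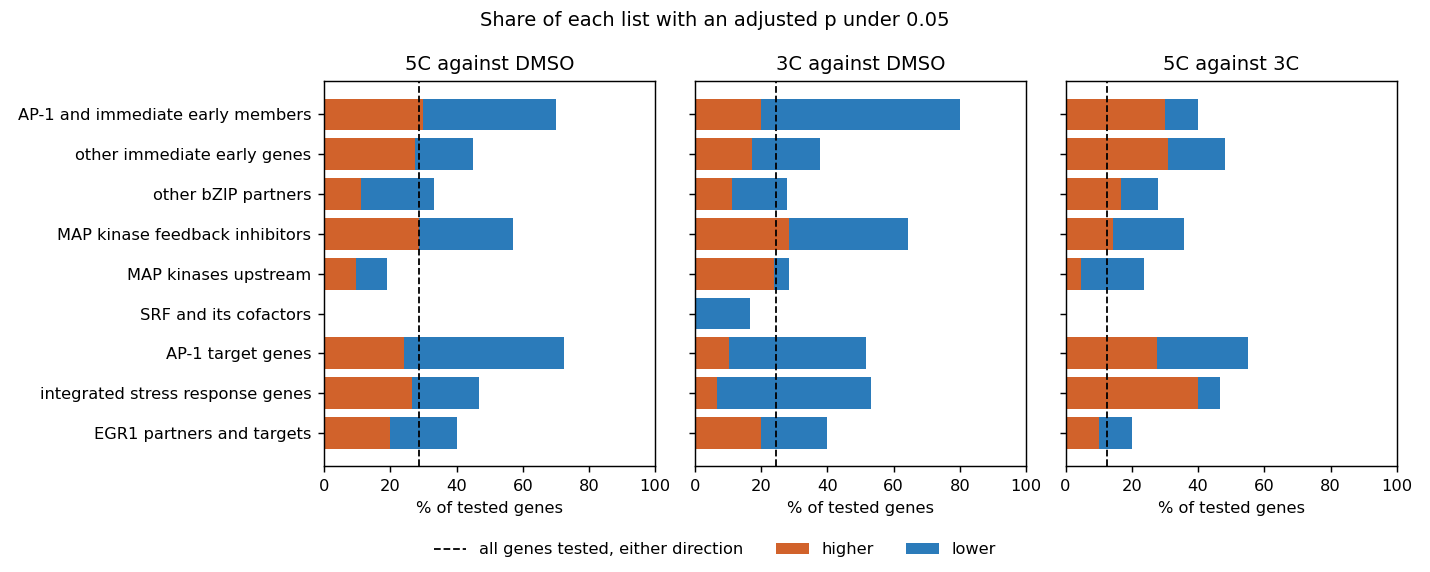
Share of the tested genes of each list, in percent, with an adjusted p under 0.05 that were higher (orange) or lower (blue), for the 3 comparisons, with a dashed line at the share among all 19135 genes tested (28.7%, 24.5% and 12.7%). The 10 AP-1 and immediate early genes reach 70%, 80% and 40%, and the serum response factor list holds no change in 5C against DMSO or 5C against 3C.

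The genes of these lists whose log2 CPM was most like that of a given gene over the 6 libraries were compared among 128 genes, as a description. Nupr1 (Pearson r = 0.99) and Chac1 (0.96) were among those most like Fos, and Klf4 (0.99), F3 (0.98) and Tgfb1 (0.97) most like Jun. Dusp1 (0.98) and Lgals3 (0.96) were among those most like Atf3, and Xbp1 (0.94), Hbegf (0.93) and Gadd45b (0.91) most like Egr1. The 6 libraries fall into 3 groups, so such an r mainly follows the order of the group means.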

How the data were processed

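Libraries were made with the NEBNext Ultra RNA kit and sequenced as paired ends on a NovaSeq instrument. The authors deposited a table of raw read counts per gene and a table of FPKM, that is, counts scaled by the authors for gene length and library size. Per the labels, featureCounts, Subread, DESeq2 and the build GRCm39 were used, and the aligner, the annotation release, versions and strand setting are not given in the sources used here. In the FPKM table Junb was listed at 0 in 4 libraries in which it had 9858 to 17142 counts. Counts were therefore used for every result not given as FPKM, and Junb was left out of the FPKM alternatives. Among low counts, values of 4 and 8 were more frequent than their neighbours, so counts divided by 4 were tried as an alternative.

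The quasi-likelihood test of edgeR 4.0.16 (TMM scaling, filterByExpr, robust) was fitted in R 4.3.3 to all genes and 6 libraries, with 3 residual degrees of freedom and Benjamini-Hochberg adjustment. Alternatives used DESeq2 1.42.0 and limma 3.58.1. CPM were taken of the library total, and levels between genes per kilobase of exons in GENCODE M39, which also gave positions and transcript starts. Exon numbers and transcript starts were those of the canonical transcript of each gene, and positions and exon lengths those of all its transcripts. Promoter sequence came from the GRCm39 genome, not from the RefSeq windows planned for it, and the planned comparison of protein sequences was not run. The floor of 3 counts per library covers counting error only. Within each of the 8 further lists and each comparison, the genes named were drawn from the up to 3 with the largest and 3 with the smallest log2 fold change among those that passed, with a mean of at least 1 CPM. Some genes that met this rule are not reported here. The 10 genes and all lists were chosen with earlier results of these data known.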

Additional observations from a re-analysis of the deposited data

Results flagged for a closer look

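The effects of the cocktails against DMSO differed between 5C and 3C, by edgeR's test of 5C against 3C, for 4 of the 10 genes. The log2 fold change of 5C against 3C was 0.72 for Fos, 1.27 for Fosb, -1.05 for Fosl1 and 0.43 for Fosl2, which are the 4 Fos family genes, and none of the Jun genes, Egr1, Atf3 or Ier3 passed that test. Under other settings Jund passed, with DESeq2 (adjusted p = 0.0376) and without 5C replicate 1 (log2 fold change -0.40, adjusted p = 0.0305), and Atf3 passed with library totals alone (-0.35, adjusted p = 0.0460). Fos was the one of the 4 whose call held without each library in turn, and the others ended without 3C replicate 1 (adjusted p = 0.128 for Fosb, 0.0883 for Fosl1 and 0.0874 for Fosl2), Fosb also without 5C replicate 2 (0.114) and Fosl1 also without 3C replicate 2 (0.129) or 5C replicate 1 (0.136). The cause was not tested.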

How the results depend on the processing

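Over 20 settings, 505 of 591 log2 fold changes of single genes kept their direction and side of the threshold, 66 no longer passed, 10 newly passed and 10 changed sign. The settings with a log2 fold change beyond 1 and with an adjusted p under 0.01 only tightened the threshold on the same fit. In them no value could change sign or newly pass. The number of genes that changed was 7 for 5C and 8 for 3C against DMSO, and 4 between the cocktails, and 8, 8 and 5 with DESeq2. It was 1, 1 and 2 with a log2 fold change beyond 1 in either direction also required, 5 in 3C against DMSO and 2 in 5C against 3C at an adjusted p under 0.01, and, with limma, 4 in 5C against DMSO and 2 in 5C against 3C on log2(FPKM + 1), 4 in 5C against DMSO on log2(FPKM + 0.1), and 4, 4 and 1 on log2(FPKM + 1) without a filter. The median log2 fold change in 5C against DMSO was -0.35 on both FPKM scales, which leave out Junb. Leaving out 1 library at a time gave 5 to 7, 5 to 8 and 1 to 4 changed genes, with the lowest counts in 3C against DMSO and in 5C against 3C both without 3C replicate 1, and medians of -0.051 to 0.16 in 5C against 3C. Direction turned for values that had not passed. With 1 library left out at a time, Ier3 ran from -0.059 (DMSO replicate 1 out) to 0.33 in 5C against DMSO and from -0.33 to 0.068 (DMSO replicate 2 out) in 3C, and between the cocktails Jun ran from -0.030 (3C replicate 1 out) to 0.18, Junb from -0.072 (3C replicate 1 out) to 0.090, and Egr1 from -0.18 to 0.13 (3C replicate 2 out). Junb between the cocktails was also -0.016 with upper-quartile scaling and -0.045 with library totals alone. Jund in 5C against DMSO had an adjusted p of 0.0600 in the fit of those 4 libraries alone. The cause of these differences was not tested. Across all genes tested, same-numbered libraries did not deviate together (correlations of -0.03, 0.00 and 0.02). With 2 libraries a group, this cannot decide whether the numbers pair them. With the replicate block the counts were 8, 8 and 4, with Fosb added in 5C against DMSO (-0.81, adjusted p = 0.0359). The SE of Egr1 in that comparison was 0.06 with the block and 0.16 without it. With 2 libraries a group, small changes such as that of Ier3 could not be told from the spread.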
